A study of Mus musculus with 2 samples.

Results

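Spliced transcripts assembled from the reads on the strand opposite to a known gene were examined in spermatogonial progenitor cells of Dnmt3l knockout and wild-type mice. A model entered the set when it came from the assembly, had 2 or more exons and 300 nt or more, carried a strand, shared an exon base with a RefSeq transcript of the opposite strand and shared none with a RefSeq transcript of its own strand. The wild-type library held 43 such models and the knockout library 41, out of 20579 and 20415 assembled models. Merging models that overlapped on the same strand gave 62 loci, opposite to 62 different sense genes, out of 10542 loci made in the same way from all spliced assembled models. The loci were thus selected on the assembled models themselves, so their presence in a library and their exon structure are given as a description. They are called below by the sense gene they face, followed by the GENCODE gene whose intron they share, where there is one. Of the 62 loci, 17 had a model in both libraries, 23 in the wild-type library only and 22 in the knockout library only.

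The study compared poly(A)-selected RNA of cells isolated from C57BL/6 testes at 8 days after birth, with 1 wild-type library and 1 Dnmt3l knockout library. The knockout allele, the number of animals behind each library and the way the cells were isolated are not given in the sources used here. With 1 library per genotype no difference below has a replicate check, and no test was made. Values are FPKM (fragments scaled to transcript length and to the mapped fragments of the library), and the bounds in parentheses are the deposited ones, which cover the estimate within a library and not the spread between animals. The depth of the libraries is unknown, because no read counts were used.

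DNMT3L is a catalytically inactive relative of the DNA methyltransferases that helps them methylate DNA in germ cells. Natural antisense transcripts lie across a gene on its other strand, either head to head over the start, tail to tail over the end or inside it. Many are long non-coding RNAs that leave a promoter in the opposite direction to the sense gene, and others are the overlapping ends of neighbouring protein-coding genes. Where a library does not mark the strand, the strand of a spliced model rests on the letters at the ends of its introns.

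The sequences at the splice junctions are shown for 9 of the 10 most abundant loci that had an identical intron in both libraries. They are exon bases, and the intron letters on which the strand of a model rests are not among them. Each line gives the 15 exon bases before and after an intron that was removed, read 5′ to 3′ on the antisense strand from GENCODE M21 transcripts (mm10), with the 2 bases on each side of the junction in capitals. The introns are chr7:127512339-127514164 (+) for Srcap, chr12:101969638-101975659 (-) for Ndufb1-ps, chr14:54850598-54853871 (+) for Rnf212b, chr11:86201553-86206952 (+) for Brip1os and chr7:19099215-19100077 (-) for Gm4969. The others are chr17:70766294-70775138 (-) for AC079441.1, chr8:84913529-84920393 (+) for Dnase2a, chrX:151309485-151314798 (+) for Wnk3 and chr9:124422829-124423233 (-) for Ppp2r3d.
1700008J07Rik locus, Srcap: cccccgaggacgcAGGTgtgatttccttca
Cpsf2 locus, Ndufb1-ps: gtcaccaggctgaAGCAgtcaagatgacct
Homez locus, Rnf212b: cttccagtcctacAGACgttctaccaacag
Brip1 locus, Brip1os: ggattgttcgagcAGGTtaaaaggcctgca
Six5 locus, Gm4969: aaagaaaccatacTGCActaaggcacgcag
Dlgap1 locus, AC079441.1: ctctgctcacctcCAGTggcaaggccagtg
Mast1 locus, Dnase2a: gacaaataccaaaAGGTgggggatgaactc
A230072E10Rik locus, Wnk3: aacaagtcatgtgAAAGtactccatctact
4930526I15Rik locus, Ppp2r3d: cgggacttccggcAGGTccatgcccacagg
The tenth, the Adamts20 locus, had the same intron in both libraries at chr15:94295030-94326295 (+), and GENCODE M21 lists no such intron.

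The ends of introns could be read where they lay inside an exon of another GENCODE transcript or inside a RefSeq promoter window. At 39 loci, 44 donor ends and 44 acceptor ends were read in this way. The donor began with GT in 41 cases and with GC in 3, and the acceptor ended with AG in all 44. Among introns that GENCODE does not list, 19 donors read GT and 2 read GC, and 22 acceptors read AG. These letters are what an aligner uses to give a spliced read its strand, so they describe the models and do not check them. The Aldh5a1 and Mrgbp loci each held a GC donor. Both ends are shown for 2 loci without a GENCODE intron that were chosen after their values were seen, Cenpn (intron chr8:116940869-116943250, -) and Mrgbp (intron chr2:180585806-180585917, -). Each line has 10 exon and 6 intron bases, and the capitals mark the first or last 2 letters of the intron.
Cenpn locus, donor: gggagaacagGTgaat
Cenpn locus, acceptor: atgcAGgtgagcaggg
Mrgbp locus, donor: agatggggagGCcttc
Mrgbp locus, acceptor: agggAGgatgcctggc

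None of the 180 introns of the loci had the same ends as an intron of a RefSeq transcript on the sense strand. GENCODE M21 lists 117 of the 180 introns on the strand of the locus. The shared bases with the sense exons were few, from 23 to 767 with a median of 101.5, which is 0.793% to 31.7% of the exon bases of a locus (median 6.60%). In 41 loci the shared bases included coding sequence of the sense gene, and in 21 they did not. As an example of what both strands carry, 30 of the shared bases are given for the Brip1 locus at chr11:86201136-86201165 and for the Mast1 locus at chr8:84913398-84913427, from GENCODE M21 transcripts.
Brip1os strand: aggtacagccactcctccctctccaggctg
Brip1 strand: cagcctggagagggaggagtggctgtacct
Dnase2a strand: gaagactgtcgctggacgacaaggaccggt
Mast1 strand: accggtccttgtcgtccagcgacagtcttc
Each pair is the same stretch of DNA read in opposite directions, and a read of an unstranded library that lies wholly inside it cannot be assigned to either gene.

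The label check and the cell content of the libraries were as follows. The knockout library listed Dnmt3l at 0, against 1.67 FPKM (0.791 to 2.68) in wild-type cells. The germ cell markers Ddx4 (139 and 123 FPKM) and Dazl (223 and 137 FPKM, wild-type first) were present in both. The spermatogonial genes Zbtb16 (55.4 and 27.9 FPKM), Kit (21.7 and 5.93 FPKM) and Gfra1 (27.4 and 48.5 FPKM) differed in both directions. The 24 listed genes of undifferentiated spermatogonia summed to 529 and 506 FPKM, with 1 at least 2-fold higher and 3 lower. The 14 of differentiating spermatogonia summed to 1095 and 971 FPKM, with none higher and 1 lower. The 22 piRNA and germ granule genes summed to 1432 and 1441 FPKM, and none of the 21 measured was 2-fold higher or lower. As background for the list counts, 7.69% of the 13797 genes compared were at least 2-fold higher and 3.5% at least 2-fold lower. Markers of somatic cells were also present, and each of their lists had a higher sum in the knockout library. The summed level of 29 Sertoli genes was 1176 FPKM in wild-type and 2146 FPKM in knockout, with 7 at least 2-fold higher and 2 at least 2-fold lower. That of 19 macrophage and leukocyte genes was 619 and 1208 FPKM, with 8 higher and 1 lower, and Cd68 listed at 0 in the knockout library. Of 10 measured Leydig genes 3 were higher and none lower, with list sums of 132 and 247 FPKM and Star listed at 0 in both libraries. Of 13 endothelial genes 4 were higher and none lower, with sums of 82.6 and 159 FPKM. Of 15 peritubular and stromal genes none was 2-fold higher or lower, with sums of 1153 and 1553 FPKM. Single markers varied, with Ptprc (2.29 and 1.98 FPKM) and Sox9 (6.204 and 6.67 FPKM) at similar values. Amh (21.2 and 87.4 FPKM), Insl3 (22.1 and 58.5 FPKM), Pecam1 (3.37 and 11.0 FPKM) and Acta2 (124 and 186 FPKM) were higher in the knockout library. The part of these cells in any value below was not tested, and in such bulk RNA fewer cells of a type and less RNA per cell cannot be told apart.

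GENCODE M21, which is on the same build, listed part of the loci. Of the 62 loci, 28 (45.2%) shared an intron with a GENCODE gene of their strand. For 6 loci that gene was protein-coding, and all 6 had a model in both libraries. For 21 it was non-coding, with 12 called antisense, 3 bidirectional promoter lncRNA, 3 lincRNA and 3 processed transcript, and 7 of the 21 (33.3%) had a model in both libraries. A further locus, opposite to Ovol1, matched the pseudogene Gm31166 and was assembled in the knockout library only. Of the 30 loci with no GENCODE exon on their strand, 3 (10%) had a model in both libraries, 13 in wild-type only and 14 in knockout only. The remaining 4 overlapped a GENCODE exon without sharing an intron, and 1 of them was in both libraries. Protein-coding and non-coding name the type of the GENCODE gene, and whether the models themselves are coding was not tested.

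**Figure D1:**
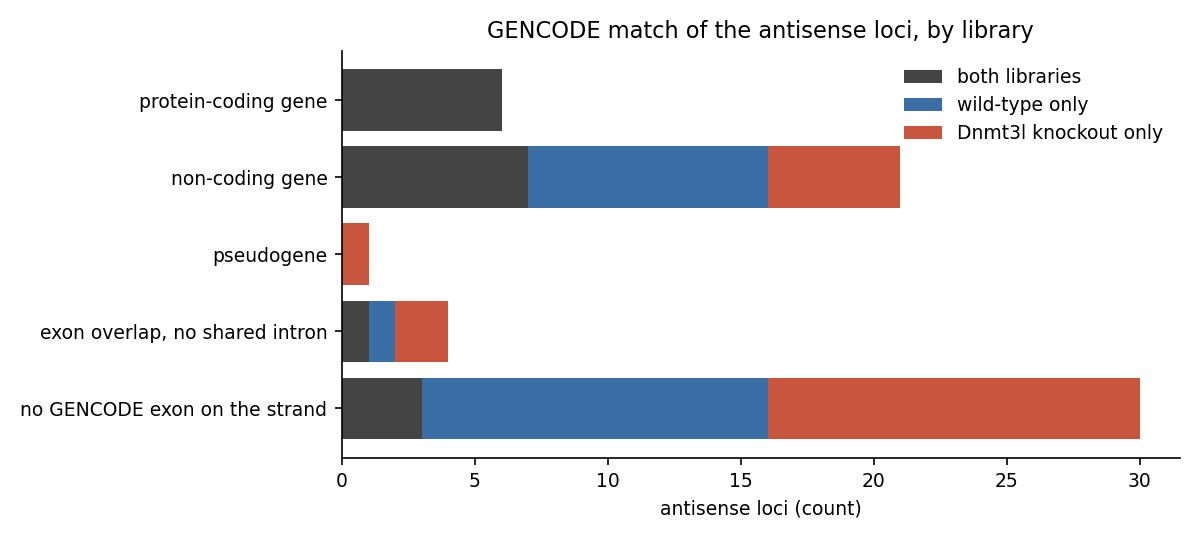
Number of antisense loci (horizontal axis, count from 0) in each class of GENCODE match (vertical axis), with bars divided by the library that held a model. All 6 loci of protein-coding genes were in both libraries, against 7 of 21 of non-coding genes and 3 of 30 with no GENCODE exon.

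The same merging over all spliced assembled models put 50.04% of 10542 loci in both libraries, and 92.0% of them had a GENCODE intron. Over the 1014 spliced loci that share no base with a RefSeq exon of either strand, 28.0% were in both libraries and 38.9% had a GENCODE intron, against 27.4% and 45.2% of the antisense loci. Among those 1014 loci, 214 were assembled in wild-type only and 516 in knockout only. Over all 10542 spliced loci the numbers were 2368 and 2899, and the antisense loci were split 23 to 22. Of the 17 antisense loci found in both libraries 16 (94.1%) had at least 1 intron with identical ends, the Castor2 locus being the exception. The share was 97.6% over all spliced loci and 90.1% over those outside RefSeq exons. The level of a locus without a model in a library is unknown there and cannot be read as 0, since assembly needs enough reads over a junction. No fold is given for such loci.

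Among the 17 loci in both libraries, levels ran from 1.12 to 41.4 FPKM in wild-type (median 2.92) and from 1.01 to 28.7 FPKM in knockout (median 3.22). On the scale of log2((knockout FPKM + 1)/(wild-type FPKM + 1)), 8 were higher in knockout and 9 lower, with a median of -0.006. The median over the 13797 genes compared was 0.22, and over the other spliced loci it was 0.26 (all) and 0.25 (outside RefSeq exons). No antisense locus was at least 2-fold higher on this scale and 2 were at least 2-fold lower, the 1700008J07Rik locus (Srcap) and the A230072E10Rik locus (Wnk3). As background, 17% of 5031 spliced loci were at least 2-fold higher and 7.14% at least 2-fold lower. Outside RefSeq exons the shares were 13.6% and 2.87% of 279 loci, and over genes they were 7.69% and 3.5%. The locus nearest to the 2-fold line among those past it was the Wnk3 transcript at -1.43. Just short of the line lay the Fam110c locus at 0.99, the Mast1 locus at -0.96 and the Dlgap1 locus at 0.94. The deposited bounds of the 2 libraries did not overlap for 8 of the 17 loci.

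**Figure D2:**
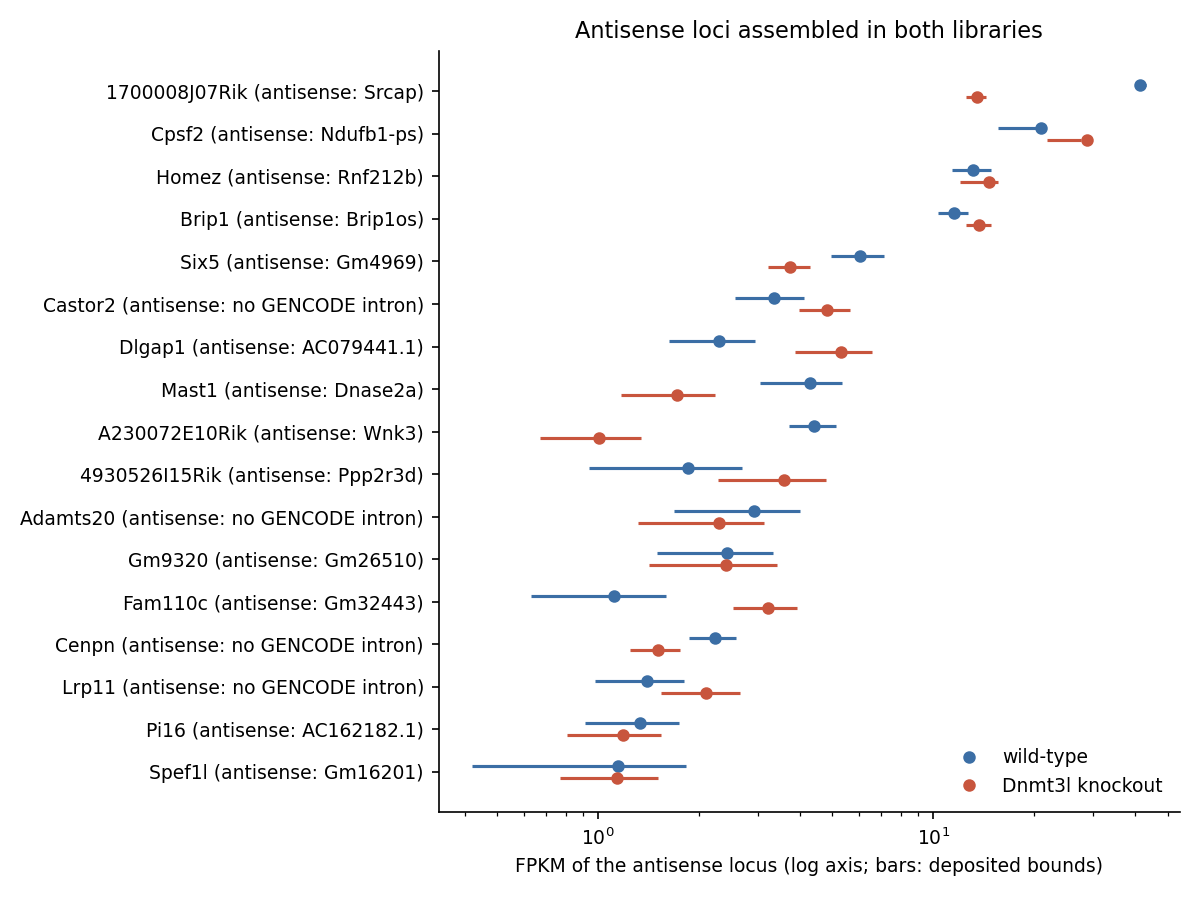
FPKM (log axis) of the 17 antisense loci assembled in both libraries, 1 row per locus, labelled by the sense gene and the GENCODE gene on the antisense strand; points are the locus totals and bars the deposited bounds. The loci of A230072E10Rik (Wnk3) and 1700008J07Rik (Srcap) were the lowest in knockout relative to wild-type, at 4.42 against 1.01 FPKM and 41.4 against 13.5 FPKM.

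The 6 antisense loci that share an intron with a protein-coding gene overlap their sense gene in different ways. Those facing Homez, Six5 and A230072E10Rik lie over its end, those facing 1700008J07Rik and 4930526I15Rik over its start and that facing Mast1 inside it. The most abundant was the 1700008J07Rik locus, at chr7:127512250-127564817 (+). Its introns are those of Srcap, the ATPase of a chromatin remodelling complex that places the histone variant H2A.Z, and 2 further introns are those of Tmem265. It was at 41.4 FPKM (40.1 to 43.1) in wild-type and 13.5 FPKM (12.5 to 14.4) in knockout, a log2 ratio of -1.55, with 34 introns identical between the libraries. The knockout total was the sum of 2 models of 6.82 and 6.65 FPKM with 35 exons each, and the wild-type library had 1 model of 35 exons. The locus starts 619 bases inside 1700008J07Rik and shares 89 bases with its exon, and the sense gene was listed at 0 in both libraries. Its 11225 exon bases make it the longest of the loci. Over the 223 genes with a transcript of 10000 nt or more, the median log2 ratio was -0.40 and 19.3% were at least 2-fold lower, against a median of 0.16 and 2.75% over 7122 genes of 2000 to 5000 nt. The part of transcript length in the ratio of this locus was not tested.

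The A230072E10Rik locus, at chrX:151168819-151314892 (+), follows Wnk3, a kinase that controls cation-chloride cotransporters. It was at 4.42 FPKM (3.71 to 5.13) in wild-type and 1.01 FPKM (0.671 to 1.34) in knockout, a log2 ratio of -1.43. The 2 wild-type models had 24 and 23 exons, and the single knockout model had 7 exons. Only 6 introns were seen in both libraries, all at the 3′ end of the gene, where the locus shares 94 bases with A230072E10Rik. The sense gene was at 4.06 and 1.15 FPKM (log2 ratio -1.23), all of it in assembled models, since its RefSeq transcripts were listed at 0 in both libraries. On that count locus and sense gene were both lower in the knockout library, and models without a strand may enter the value of the gene.

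The Homez locus, at chr14:54813705-54853962 (+), has the 14 introns of Rnf212b, a RING-finger gene with a role in meiotic recombination, and its end shares 91 bases with the end of Homez, a homeobox gene. It was at 13.1 FPKM (11.3 to 14.9) in wild-type and 14.6 FPKM (12.01 to 15.6) in knockout, and Homez at 10.4 and 9.001 FPKM, of which RefSeq transcripts made up 7.08 and 1.85 FPKM. The bounds of this locus overlapped. The Six5 locus, at chr7:19098252-19118372 (-), has introns of Gm4969, also known as Meiosin, which encodes a partner of STRA8 at the entry into meiosis. It was at 6.03 FPKM (4.96 to 7.11) in wild-type and 3.75 FPKM (3.21 to 4.29) in knockout, a log2 ratio of -0.57 with bounds that did not overlap. Six5, a homeobox gene, went the other way, with 4.92 and 7.50 FPKM (log2 ratio 0.52).

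The Mast1 locus, at chr8:84913187-84923665 (+), shares 2 introns with Dnase2a, a lysosomal nuclease that macrophages use to digest engulfed DNA. It measured 4.28 FPKM (3.05 to 5.32) in wild-type and 1.72 FPKM (1.18 to 2.24) in knockout, a log2 ratio of -0.96. Mast1, a microtubule-associated kinase, was at 1.39 FPKM in wild-type and 5.19 FPKM in knockout, a log2 ratio of 1.37. The higher knockout value came from assembled models counted for Mast1, on its strand or without a strand. The RefSeq transcripts of Mast1 alone were at 1.39 and 0.519 FPKM, lower in knockout as the locus was. The opposite directions of locus and sense gene therefore depended on which transcripts were counted for Mast1. The RefSeq gene Dnase2a, whose exons the antisense models do not touch, was at 4.49 and 6.95 FPKM, so the models antisense to Mast1 and the annotated gene also differed in direction. The 4930526I15Rik locus, at chr9:124422506-124423861 (-), shares its intron with Ppp2r3d, a regulatory subunit gene of protein phosphatase 2A, and lies over the start of the sense gene. It was at 1.85 FPKM (0.939 to 2.68) in wild-type and 3.58 FPKM (2.28 to 4.80) in knockout, and 4930526I15Rik was at 5.84 and 7.96 FPKM. The RefSeq gene Ppp2r3d, whose exons these antisense models do not touch, was at 2.07 FPKM in wild-type and 4.23 FPKM in knockout.

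The non-coding antisense loci in both libraries were led by the Cpsf2 and Brip1 loci, which both lie head to head with their sense gene. Ndufb1-ps, at chr12:101968127-101976384 (-), starts 410 bases inside Cpsf2, which encodes a subunit of the complex that cleaves messenger RNA before polyadenylation. It was at 20.9 FPKM (15.6 to 21.3) in wild-type and 28.7 FPKM (21.8 to 27.6) in knockout, where the deposited FPKM lies above its own upper bound, the single case among the models of the 62 loci. Cpsf2 was at 14.4 FPKM in wild-type and 9.39 FPKM in knockout, a log2 ratio of -0.57 against 0.43 for the locus. With RefSeq transcripts only, Cpsf2 was at 8.12 and 9.39 FPKM, higher in knockout as the locus was. Brip1os, at chr11:86201015-86209821 (+), starts 178 bases inside Brip1, which encodes a helicase of the Fanconi anaemia pathway. It was at 11.5 FPKM (10.3 to 12.7) in wild-type and 13.7 FPKM (12.5 to 14.9) in knockout, with bounds that overlapped, and Brip1 was at 7.72 and 7.46 FPKM, of which RefSeq transcripts made up 2.31 FPKM in wild-type and were listed at 0 in knockout. At both loci the antisense transcript had a higher FPKM than the sense gene in both libraries.

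The other non-coding loci in both libraries were below 6 FPKM. The Dlgap1 locus, at chr17:70764957-70775395 (-), matches AC079441.1 and lies inside Dlgap1, a scaffold gene of the postsynaptic density. It was at 2.30 FPKM (1.62 to 2.94) in wild-type and 5.30 FPKM (3.86 to 6.56) in knockout, and Dlgap1 was at 1.41 and 2.99 FPKM. Its RefSeq transcripts alone were at 0.638 and 0.496 FPKM, so the direction of the sense gene turned with the transcripts counted. The Fam110c locus (Gm32443) was at 1.12 FPKM (0.631 to 1.60) in wild-type and 3.22 FPKM (2.53 to 3.92) in knockout, while Fam110c was at 1.32 and 1.44 FPKM. Its bounds did not overlap. The loci opposite to Gm9320 (Gm26510, 2.42 and 2.41 FPKM), Pi16 (AC162182.1, 1.34 and 1.18 FPKM) and Spef1l (Gm16201, 1.15 and 1.14 FPKM) differed by less than their bounds.

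Of the loci in both libraries without a GENCODE intron, the Adamts20 locus, at chr15:94294945-94327104 (+), lies inside the gene of an extracellular metalloprotease. It was at 2.92 FPKM (1.68 to 3.995) in wild-type and 2.29 FPKM (1.32 to 3.13) in knockout, whereas Adamts20 was at 1.42 and 0.0969 FPKM. The bounds of the locus overlapped, while the sense gene was at least 2-fold lower on the log2 scale (-1.14). The RefSeq transcripts of Adamts20 were listed at 0 in wild-type, so its wild-type value lay in assembled models. The Cenpn locus faces the end of a centromere protein gene and was at 2.23 and 1.51 FPKM, with Cenpn at 17.2 and 18.8 FPKM. The Castor2 locus was at 3.35 and 4.81 FPKM and the Lrp11 locus at 1.40 and 2.099 FPKM, and their sense genes were at 5.74 and 3.92 FPKM and at 3.27 and 3.41 FPKM. The RefSeq transcripts of Lrp11 alone were at 0.799 and 0.368 FPKM, the other direction.

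Levels of locus and sense gene can be set side by side because FPKM is scaled to length. In wild-type 19 of 40 loci had a higher FPKM than their sense gene and in knockout 19 of 39. Of the 17 loci in both libraries, 7 were above the sense gene in both and 4 below it in both. The log2 ratios of locus and sense gene had the same sign in 7 of the 17 pairs, or in 3 when the RefSeq transcripts of the sense gene were counted alone. Counted alone, these gave a ratio of 0 for 1700008J07Rik, A230072E10Rik, Fam110c, Gm9320 and Spef1l, so those pairs could not share a sign. In the first count this held for 1700008J07Rik. With assembled models included, 9 of the 17 were on the same side of the median gene, at 0.205 over genes with 1 FPKM or more in both libraries. Since the strand of reads inside shared exons is unknown, part of either value may belong to the other strand, which was not tested.

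**Figure D3:**
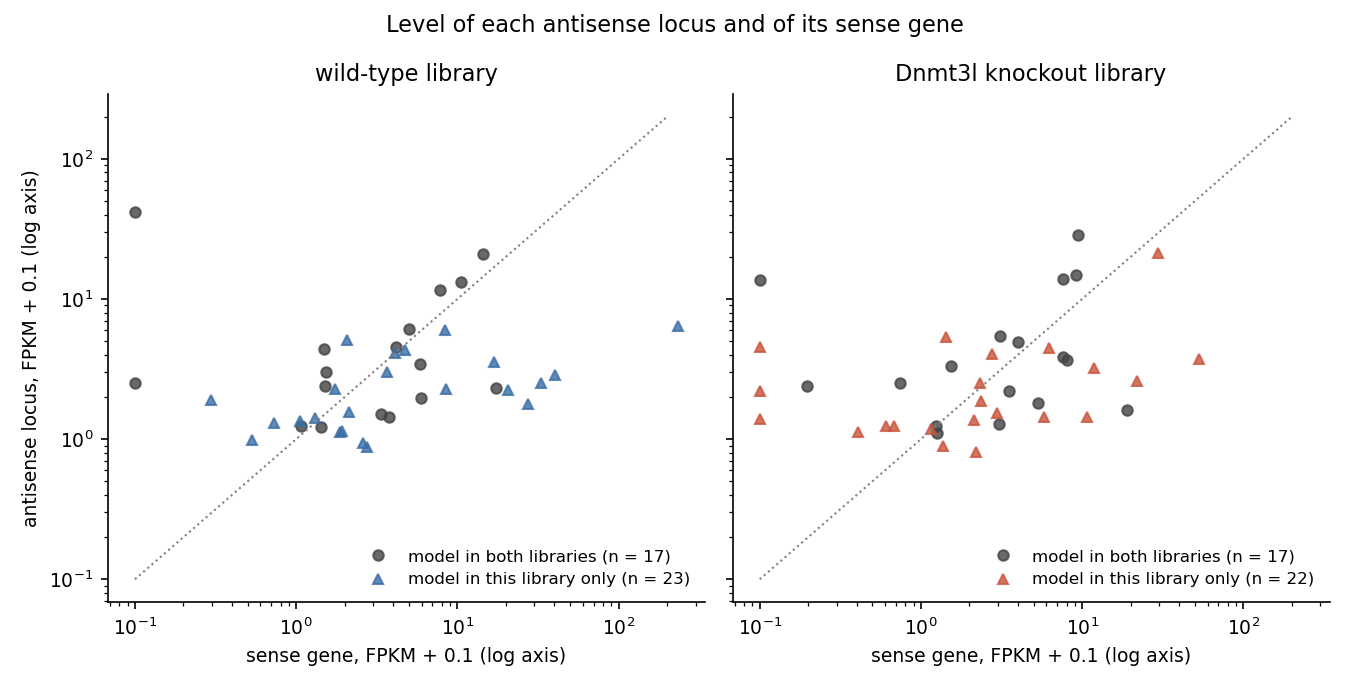
FPKM of each antisense locus (vertical) against FPKM of its sense gene (horizontal), both as FPKM + 0.1 on log axes, in the wild-type (left) and knockout (right) library; the dotted line marks equal levels, and points at the left edge are sense genes listed at 0. In wild-type 19 of 40 loci lay above the line, and in knockout 19 of 39.

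**Figure D4:**
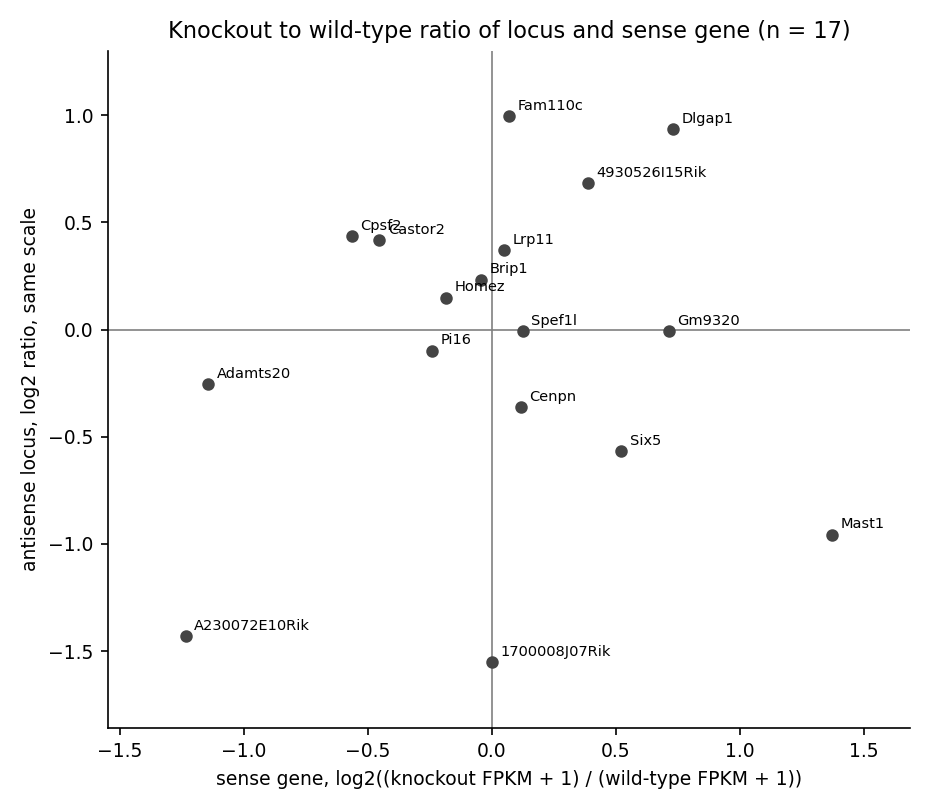
Log2 ratio of knockout to wild-type, log2((FPKM + 1)/(FPKM + 1)), of the antisense locus (vertical) and of its sense gene (horizontal) for the 17 loci in both libraries, 1 point per locus labelled by the sense gene. Mast1 stands at 1.37 for the gene and -0.96 for the locus, and A230072E10Rik at -1.23 and -1.43; sense levels include assembled models, without which the ratio of Mast1 changed sign.

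Of the 62 sense genes, the 57 that face a locus of 1 FPKM or more were compared. Their median log2 ratio was 0.16 against 0.22 over the 13797 genes compared, and 27 of the 57 were above the median gene. Those 13797 genes had 1 FPKM or more themselves in a library, a filter not set on the sense genes. Sense genes below 1 FPKM in both libraries faced 2 of the 17 loci with a model in both. They also faced 3 of the 23 wild-type loci and 5 of the 22 knockout loci. Of the 57, 4 were at least 2-fold higher (background 7.69%) and 3 at least 2-fold lower (background 3.5%). The higher ones were Mast1, Tep1, a telomerase-associated protein gene (3.54 and 13.9 FPKM), Glyatl3 (0.713 and 2.66 FPKM) and Pus1, a pseudouridine synthase gene listed at 0 in wild-type and at 21.8 FPKM in knockout. The lower ones were Adamts20, A230072E10Rik and Upk3bl (3.17 and 0.308 FPKM). These calls rest largely on assembled models counted for the sense gene, on its strand or without a strand. With RefSeq transcripts only, 1 of the 4 (Pus1) stayed higher and none of the 3 stayed lower. Mast1, Tep1 (3.54 and 2.37 FPKM) and Glyatl3 (0.713 FPKM and listed at 0) were then lower in knockout. Upk3bl (listed at 0 and at 0.308 FPKM) and Adamts20 were then higher, and 16 of the 57 ratios changed sign. Of these 7, Mast1, Adamts20 and A230072E10Rik had an antisense model in both libraries. The antisense model opposite to Tep1 (Gm26782, 2.93 FPKM) was in wild-type only, and those opposite to Pus1 (Gm15559, 2.51 FPKM), Glyatl3 (3.93 FPKM) and Upk3bl (1.02 FPKM) were in knockout only.

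Of the 23 loci assembled in wild-type only, levels ran from 0.775 to 6.32 FPKM with a median of 2.12, and 16 had a single intron. The 4 most abundant faced Myl6, a myosin light chain gene, Bhlhe41, a repressor of the circadian clock, Serpinb2, a plasminogen activator inhibitor gene, and Traf3ip2, an adaptor of interleukin-17 signalling. The Myl6 locus, at chr10:128490938-128501815 (+), was at 6.32 FPKM (5.56 to 7.05), and Myl6 itself was at 233 FPKM in wild-type and 445 FPKM in knockout. The Bhlhe41 locus, at chr6:145861243-145887547 (+), spans the whole sense gene with an intron of 24544 bases and was at 5.88 FPKM (4.58 to 7.17), with Bhlhe41 at 8.30 and 9.41 FPKM. The Serpinb2 locus, at chr1:107498764-107523829 (-), was at 5.04 FPKM (2.05 to 5.87), above Serpinb2 at 1.96 and 1.35 FPKM. GENCODE lists no intron of these 3 loci. The Traf3ip2 locus, at chr10:39638821-39652319 (-), matches E130307A14Rik and was at 4.23 FPKM (3.82 to 4.65). In the knockout library the same intron was in a model of 3.81 FPKM that fell outside the selection. The absence of the locus there therefore does not mean that the junction was unseen. The RefSeq gene E130307A14Rik, whose exons this antisense model does not touch, was at 11.99 FPKM in wild-type and 13.55 FPKM in knockout, with overlapping bounds. Traf3ip2 was at 4.64 FPKM in wild-type and 9.93 FPKM in knockout, a log2 ratio of 0.95. The RefSeq transcripts of Traf3ip2 were listed at 0 in wild-type and at 6.01 FPKM in knockout.

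Of the 22 loci assembled in knockout only, levels ran from 0.705 to 21.2 FPKM with a median of 1.60, and 17 had a single intron. The most abundant faced Mrgbp, which encodes a subunit of the TIP60 histone acetyltransferase complex. It lies at chr2:180585535-180586409 (-), was at 21.2 FPKM (18.4 to 24.1), and has an intron of 112 bases with the GC donor shown above. In the wild-type library 82.1% of its bases outside RefSeq exons were covered by models on the sense strand, and Mrgbp was at 28.3 and 29.5 FPKM. The RefSeq transcripts of Mrgbp were listed at 0 in wild-type, where its value lay in assembled models, and made up all 29.5 FPKM in knockout. The 2 values of Mrgbp thus count different kinds of transcript. The Slco1a5 locus, at chr6:142235104-142243874 (+), faces an organic anion transporter gene and was at 5.25 FPKM (2.50 to 6.09), with Slco1a5 at 0.281 and 1.33 FPKM. The Defb46 locus, at chr8:19238615-19240028 (-), faces a beta-defensin gene listed at 0 in both libraries and was at 4.45 FPKM (2.45 to 6.45). The Kif5c locus, at chr2:49743505-49746918 (-), lies inside a kinesin heavy chain gene and was at 4.36 FPKM (3.56 to 5.15), with Kif5c at 11.5 and 6.13 FPKM. GENCODE lists no intron of these 4 loci.

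The other library was searched for the bases of the 45 loci assembled in 1 library. An identical intron was present in a model outside the selection for 4 of them, the loci facing Traf3ip2, Tmc3, Efcc1 and 1700011B04Rik. Of the 23 wild-type loci, 9 had none of their bases outside RefSeq exons covered by any knockout model and 8 had 50% or more covered. Of the 22 knockout loci, 10 had none covered in wild-type and 9 had 50% or more. Models on the sense strand covered 50% or more of these bases at 8 loci, those facing B4galnt2, Gpr162, Il17d, Tmc3, Mrgbp, Ppp1r3e, Catsperd and Prox2. At the Tmc3 locus models on the antisense strand, including the identical intron, covered about as many of these bases (2236 of 2369, against 2165 by the sense strand).

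By position, 19 loci lay over the start of the sense gene, 19 over its end, 21 inside it and 3 across the whole gene. Of the 19 over a start, 15 began within 1000 bases of it, and the median distance from the sense start to the antisense 5′ end was 304 bases. The exons of 8 of the 19 held all 250 bases upstream of the sense start, so that the sense promoter lay inside antisense exon.

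**Figure D5:**
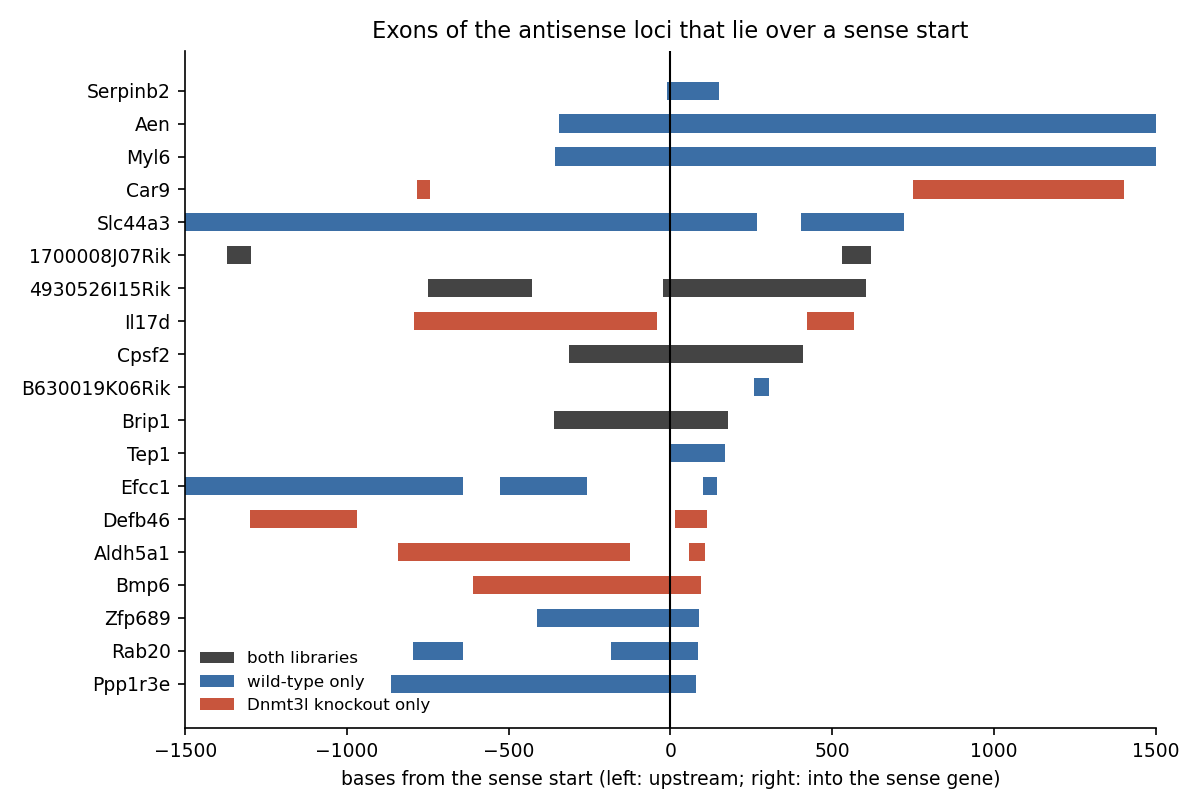
Exons (bars) of the 19 antisense loci over a sense start, 1 row per locus, by distance in bases from the sense start at 0; upstream is to the left, bars are coloured by the library with a model, and exons beyond the window are not drawn. Of the 19, 15 begin within 1000 bases inside the sense gene.

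RefSeq promoter windows (GRCm38.p6, which is mm10), from 250 bases before to 50 bases after a start, were found for 50 of the 62 sense genes. They had a median of 16.5 CpG and 58.3% G and C, against 7 CpG and 52.7% over all 32851 windows. All windows together belong to 27025 genes, whether or not they had a level in these libraries. The part of expression in the differences from all windows was not tested. A window need not lie at the sense start used for position, and that of Dlgap1 was 136954 bases from it. The 16 sense genes with a locus over the start had a median of 19.5 CpG and the other 34 had 15. Searched on both strands, CCAAT was in 25 of 50 windows (50%) against 37.4% of all windows, TATAAA in 6% against 13.6%, CCGGAAG in 8% against 8.86% and CACGTG in 12% against 7.15%. A match is a description of the letters only. The 250 upstream bases are printed for the 2 most abundant non-coding head-to-head loci, on the sense strand, because they lie inside the first antisense exon at both. The coordinates are chr11:86201194-86201443 (-) for Brip1 and chr12:101975724-101975973 (+) for Cpsf2. Capitals mark CCAAT or CCGGAAG on either strand.
Brip1: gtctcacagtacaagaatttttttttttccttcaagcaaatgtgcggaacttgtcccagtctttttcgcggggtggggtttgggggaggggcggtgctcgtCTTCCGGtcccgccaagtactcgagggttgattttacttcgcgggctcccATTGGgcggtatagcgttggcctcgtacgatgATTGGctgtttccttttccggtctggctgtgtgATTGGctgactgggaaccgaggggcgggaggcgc
Cpsf2: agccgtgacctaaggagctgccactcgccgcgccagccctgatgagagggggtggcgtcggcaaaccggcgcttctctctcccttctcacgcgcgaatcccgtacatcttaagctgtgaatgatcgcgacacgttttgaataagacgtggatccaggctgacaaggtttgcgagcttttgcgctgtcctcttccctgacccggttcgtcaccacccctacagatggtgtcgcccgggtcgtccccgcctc
The Brip1 stretch holds 18 CpG and the Cpsf2 stretch 24.

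The sense genes were compared with lists of germ cell, imprinted, chromatin and somatic genes. Of 27 meiosis genes only Meiob, which encodes a single-strand DNA binding protein of meiotic recombination, faced an antisense locus, and no sense gene was in the other 12 lists. The lists hold 11 to 56 genes, and the 62 sense genes stand beside 13797 genes compared. Little or no overlap is due with any list of this size, so these counts are a description only. The Meiob locus, at chr17:24836285-24845575 (-), lies over the end of the gene, has a single intron that GENCODE does not list and was assembled in knockout only, at 1.43 FPKM (0.695 to 2.16). Meiob was at 2.42 FPKM in wild-type and 2.88 FPKM in knockout. Of 27 meiosis genes as a whole, 1 was at least 2-fold higher and none lower, with a median log2 ratio of 0.04. A list of named natural antisense RNAs of the mouse, which shares no gene with the loci, had 10 measured members, none of them 2-fold higher or lower, and a median log2 ratio of 0.19. Beside both lists, 7.69% of the 13797 genes were at least 2-fold higher and 3.5% at least 2-fold lower, with a median of 0.22.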

How the data were processed

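Poly(A) RNA of 1 wild-type and 1 Dnmt3l knockout library was sequenced, and the protocol in the labels describes no step that marks the strand. Per the submitters' processing notes, the tools were CASAVA 1.9, TopHat2 2.0.8 and Cufflinks 2.1.1 on mm10, with settings not given in the sources used here. The authors deposited a transcript annotation per library with an FPKM, its bounds and a coverage for each RefSeq transcript and assembled model, and these FPKM values were used as deposited. The level of a locus is the sum over its models. That of a gene is the sum over its RefSeq transcripts and the assembled models of 300 nt or more that overlap its exons. Such a model lay on the strand of the gene, or had no strand and a share of 0.5 or more of its bases in those exons.

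RefSeq identifiers (30079) received symbols by accession for 29451, from a GENCODE table for 177 and by exon overlap for 423, and 28 stayed unnamed. GENCODE M21 was used for the antisense strand, since 99.28% of 192275 RefSeq introns in the files have the same ends in it. Sequences were copied from GENCODE M21 transcripts and RefSeq promoter windows. A pseudocount of 1 was added to both libraries before taking log2 of knockout over wild-type, for loci and genes of 1 FPKM or more in a library and 300 nt or more. Sense genes were filtered on the level of the locus they face instead of their own. Genes and loci were called higher or lower at 2-fold.

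Loci named in full were the 10 with the highest mean FPKM among those in both libraries with an identical intron, the 6 highest and 6 lowest ratios among such loci of 5 FPKM or more in a library (6 loci in all), the 4 most abundant of each single library, and loci of listed sense genes. Others were named after their values were seen. The loci, the rule and the 13 gene lists were chosen with earlier results of these data known. Scripts ran in Python 3.11.15 with pandas 2.3.3 and numpy 2.4.6 and were tested on simulated transcripts. Alternatives varied the rule, pseudocount, level filter, fold, centring and unit.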

Additional observations from a re-analysis of the deposited data

How the results depend on the processing

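Of 70 values under other settings, 55 stayed within the limits set (1.5 times for counts, the interval of the reported value for medians and shares), 10 moved beyond them and 5 changed sign; the cause was not tested beyond the settings' own construction. Requiring 3 or more exons left 22 loci, and 100% of those in both libraries then had an identical intron. The count of loci at least 2-fold higher in knockout, 0 as reported, was 2 with the coverage in place of FPKM and 2 with a pseudocount of 0.1 (Dlgap1 and Fam110c), and 3 at a 1.5-fold line. The count of lower loci, 2 as reported, was 1 with 50 or more shared bases, 1 with a pseudocount of 5 and 1 with a filter at 5 FPKM (the 1700008J07Rik locus each time), and 0 at a 4-fold line. It was 3 with coverage, a pseudocount of 0.1, a 1.5-fold line or centring on the median gene, which added the Mast1 locus. The median log2 ratio of the loci, -0.006 as reported, was 0.0712 with 50 or more shared bases, 0.18 with the most abundant model of each locus, 0.0795 with coverage and 0.19 with a filter of 5 FPKM, and -0.21 after centring. The median of the sense genes, 0.16 as reported, was -0.0435 after centring and 0.0257 with RefSeq transcripts only. That setting, extended to single genes after seeing the data, gave 6 higher and 4 lower sense genes and changed the sign of 16 of the 57 log2 ratios. Only sense genes that face a locus in both libraries or were called at 2-fold as reported are named here. Among them the ratio turned negative for Mast1 (-0.655), Tep1 (-0.430), Glyatl3 (-0.777), Dlgap1 (-0.131) and Lrp11 (-0.395). It turned positive for Adamts20 (0.133), Upk3bl (0.387), Cpsf2 (0.187) and Pi16 (0.282). Keeping only loci with canonical intron letters was not run, since no genome sequence was used here. No paired analysis was possible because there was 1 library per genotype. The depth is unknown.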
